A study of Mus musculus with 8 samples.

Results

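The Tribbles genes Trib1, Trib2 and Trib3 were followed through 4 lists of chromatin loops. They are 3 of the 21757 protein-coding genes whose canonical start site, in the GENCODE M39 annotation of the mouse assembly GRCm39, was placed into bins of 5 kb. A promoter loop is a listed pair of bins of which one holds that start site. The genes took part in 2 of the 80489 loops listed for untreated p30 and 2 of 94609 for p30 with LPS, and in 7 of 158233 for untreated p42 and 10 of 78591 for p42 with LPS. These loops comprise 13 distinct bin pairs, 12 of Trib1, 1 of Trib3 and 0 of Trib2.

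The loops come from HiChIP for H3K27ac in HPC-7, a line of haematopoietic progenitors from the mouse that grows with stem cell factor. HiChIP joins DNA ends that lie close together in crosslinked nuclei and enriches the joined fragments with an antibody, here against acetylated lysine 27 of histone H3, a mark of active promoters and enhancers. All groups were HPC-7 lines that carried one form of the transcription factor CEBPA, either full-length p42 or p30, the amino-terminally truncated product found in leukaemia. In the study's methods these forms were introduced by retrovirus and transduced cells were sorted by GFP, so that each line is a population with added CEBPA and not an edited locus. The methods describe the p42 and p30 HPC-7 lines as fusions to ERT2, which enter the nucleus when 4-hydroxytamoxifen is added before an experiment. A constitutive version is also described, and the labels do not say which version was used here. Cells were left untreated (UT) or were given lipopolysaccharide (LPS), a bacterial ligand of TLR4, at 100 ng/mL for 2 h. There were 8 libraries, 2 per group, but each group has 1 list that pools both, so no spread between replicates could be measured and every difference below is a difference between 4 lists. The cells of these lists had promoter loops at 6 of 6 progenitor markers (Kit, Gata2, Lyl1, Tal1, Lmo2 and Runx1) in each list. Of all protein-coding genes, 37.2% (UT) and 38.8% (LPS) had a promoter loop in p30 and 44.8% and 35.1% in p42.

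Tribbles proteins are pseudokinases: they keep the fold of a protein kinase but act mainly as scaffolds. TRIB1 and TRIB2 hold C/EBPα with one surface and the ubiquitin ligase COP1 with their carboxy-terminal tail, so that p42 is ubiquitinated and degraded. The p30 form lacks the stretch that Tribbles proteins bind. In mice, forced expression of Trib1 or Trib2 in marrow causes acute myeloid leukaemia, whereas Trib3 is best known as a stress gene induced by ATF4 and CHOP that binds AKT.

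Trib1 lies on chromosome 15, and its canonical transcript runs on the plus strand from 59520147 to 59528948. Its start-site bin (59520001 to 59525000) also holds the start of Gm56697, an antisense long non-coding RNA. Trib2 lies on the minus strand of chromosome 12 (15841714 to 15866786, start-site bin 15865001 to 15870000), and its bin is shared with the start of the non-coding Gm5432. Trib3 lies on the minus strand of chromosome 2 (152179337 to 152186012, start-site bin 152185001 to 152190000), and its bin is shared with the start of the non-coding Gm14164. A loop of such a bin cannot be assigned to one of the transcripts that begin in it.

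The 12 partners of Trib1 fell into 3 stretches. The first comprised 5 bins between 260 and 235 kb upstream, all inside Nsmce2, which encodes a SUMO ligase of the SMC5/6 complex. Of these, 4 bins were intronic and the bin at 235 kb (59285001 to 59290000) overlapped an exon. The second comprised 4 bins between 70 and 90 kb downstream, 3 of them intergenic and the bin at 90 kb in an intron of the non-coding Gm36819. The third comprised 3 bins between 160 and 180 kb downstream, all inside Gm36819, of which the bin at 175 kb also held the start of the non-coding Gm63064. No partner bin of Trib1 held the start site of a protein-coding gene.

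Short stretches of these partners are shown for the motifs of the factors that the study dealt with, AP-1 (searched as TGANTCA, which reads the same on both strands) and the composite C/EBP-ATF element (TGATGNAA). They were taken from the plus strand of GRCm39, run 5′ to 3′ and carry the matches in capitals. The partner at 255 kb upstream was a loop partner in both p42 lists and in neither p30 list, and the bin at 240 kb upstream held the most AP-1 matches of all partners. The bins at 80 and 180 kb downstream were also listed in both p42 lists, and the bin at 70 kb held the composite element in the form that combines both half-sites.
255 kb upstream, chr15:59266838-59266885: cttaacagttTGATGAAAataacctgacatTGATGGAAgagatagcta
255 kb upstream, chr15:59269924-59269951: aaaggtgctgTGATGAAAaccttttccc
240 kb upstream, chr15:59283875-59283911: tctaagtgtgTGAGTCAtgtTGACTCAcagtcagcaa
240 kb upstream, chr15:59281727-59281753: ggaatgtgttTGAGTCAaatcaaagac
70 kb downstream, chr15:59590609-59590636: ggggctgggtTTGCATCAaagactcgag
80 kb downstream, chr15:59602004-59602030: ctggtctctgTGAGTCAgattcataga
80 kb downstream, chr15:59603067-59603093: accgggtttgTGACTCAtctctggaat
180 kb downstream, chr15:59700714-59700751: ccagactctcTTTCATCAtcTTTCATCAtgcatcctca
180 kb downstream, chr15:59701328-59701354: gggaagggacTGACTCAgagagaatca

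Over the 12 partner bins, AP-1 letters were found in 8, against 77.4% of the 64985 bins flagged as a peak in at least 1 list, and their mean was 2.25 matches per bin against 1.53. Letters of the composite search, which leaves 1 base open, were found in 9 of 12 partners, against 50.6% of peak bins, with means of 1.33 and 0.727. Of these partners, only the bin at 70 kb held the form with both half-sites. The C/EBP half-site pair TTNNGCAA was present in 12 of 12 partners and in 85.8% of peak bins (means of 2.5 and 2.08), and the NF-kB motif in 8 of 12 and in 42.2% (means of 0.75 and 0.582). The individual bins ranged from 0 AP-1 matches (at 260, 255 and 235 kb upstream and at 160 kb downstream) to 7 at 240 kb upstream. All 4 motifs were searched on both strands, matches of different motifs may overlap, and a match describes letters only.

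The number of Trib1 promoter loops was higher in the p42 lists than in the p30 lists. It was 1 in p30 UT and 2 after LPS, against 7 in p42 UT and 9 after LPS. In UT, where the p42 list was the longest of the 4, this order was common: among genes with a promoter loop in either untreated list, 81.9% had more in p42, and 19.96% differed by at least the 6 loops of Trib1. After LPS it was not, since 23.6% of genes had more promoter loops in p42 and the median gene had 1 fewer, whereas Trib1 had 7 more, a difference reached by 0.339% of the 9150 genes compared. In lists cut to the 78591 loops with the smallest q-values, the counts for Trib1 were 1, 2, 3 and 9, so that the untreated difference shrank to 2 while that after LPS stayed at 7. In these shorter lists 41.7% of genes had more promoter loops in p42 in UT, with 22.4% at 2 or more, and 33.7% had more after LPS, with 0.679% of 8834 genes at 7 or more.

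LPS went with 1 more Trib1 loop in p30 and with 2 more in p42. In p30, 53.1% of genes had more promoter loops after LPS. In p42 the share was 4.51% and the median gene had 3 fewer loops, while Trib1 had 2 more. With equally long lists the p42 share was instead 31.8%, and 0.45% of genes reached the 6 more loops that Trib1 had there. The direction of this Trib1 difference depends on the setting: it was -1 at a q-value of at most 0.001 and -2 with 1 bin added on each side of the start site. In both p42 lists together Trib1 had 3 pairs in common that no p30 list held, and 2 further pairs were listed in p42 UT alone and 5 in p42 LPS alone. Of its 12 pairs, 10 were listed in p42 alone, 0 in p30 alone and 2 in both, whereas 37.3% of the 66960 promoter pairs of all genes were listed in p42 alone and 15.9% in p30 alone.

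**Figure D1:**
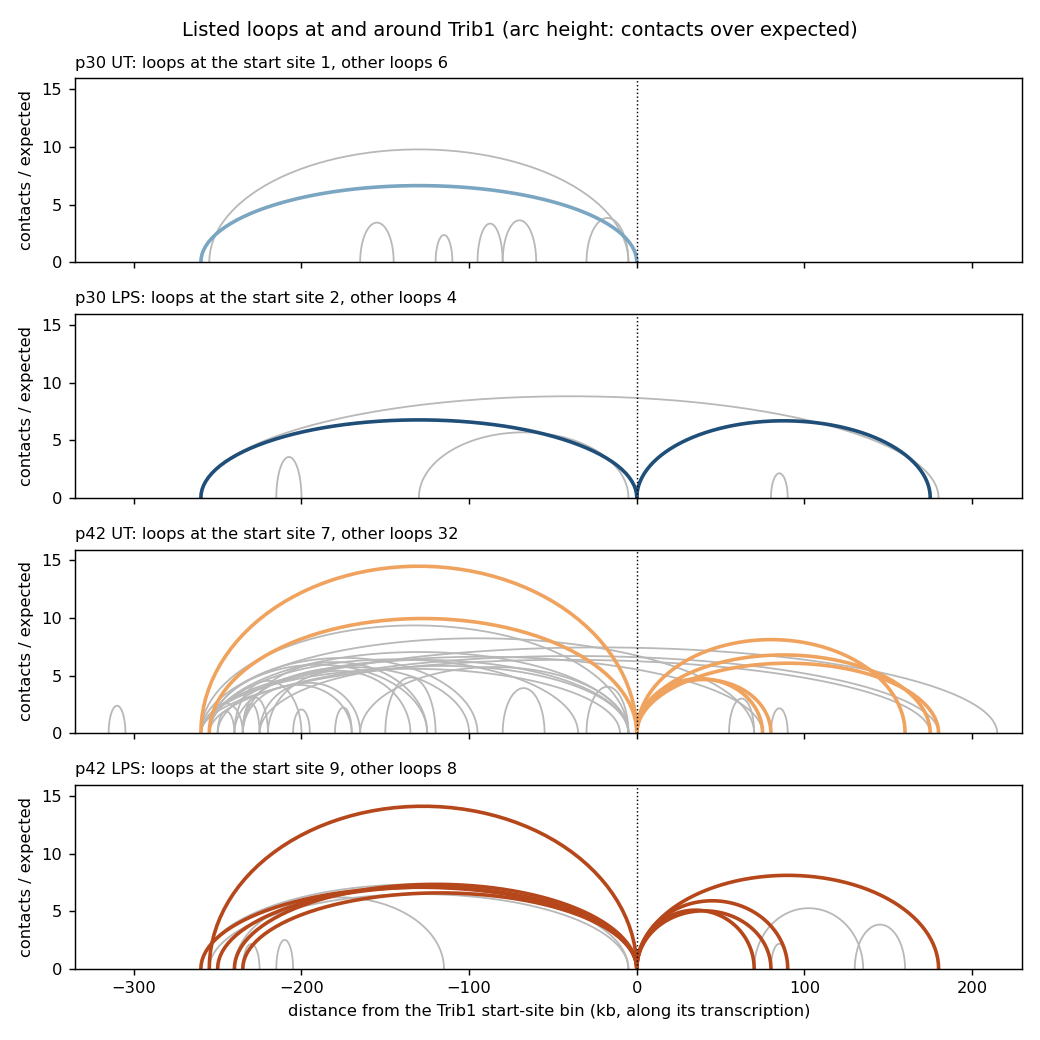
Loops listed around Trib1 in each of the 4 lists. The horizontal axis gives the distance from the start-site bin in kb and the arc height the contacts over the caller's expected count; coloured arcs end on the start site and grey arcs are other loops with both bins within 320 kb. The p30 panels hold 1 and 2 coloured arcs and the p42 panels 7 and 9.

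The pair that all 4 lists held joins the start site with the bin at 260 kb upstream (59260001 to 59265000), in an intron of Nsmce2. It had 8 contacts in p30 both in UT and with LPS, while p42 had 19 in UT and 9 with LPS. The p42 UT value was the highest, and the other lists lay within 1 contact of each other. Against 1.20, 1.18, 1.31 and 1.27 expected contacts, these were ratios of 6.65 (95% Poisson interval 2.87 to 13.1), 6.75 (2.92 to 13.3), 14.5 (8.73 to 22.6) and 7.08 (3.24 to 13.4), whose intervals overlap; here and below they cover counting error only.

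The adjacent bin, 255 kb upstream (59265001 to 59270000), had 13 contacts in p42 UT and 18 after LPS, ratios of 9.96 (5.30 to 17.03) and 14.1 (8.36 to 22.3). It was not listed with the start site in p30. Since the caller's expected count follows exactly from distance and coverage, the largest contact count that would have missed its threshold could be computed, and this bound was 7 contacts in p30 UT and 8 after LPS. In p30 UT the bin itself was covered and formed a loop with 12 contacts to the bin just upstream of the start site, a ratio of 9.79. The upstream stretch was therefore joined to the Trib1 region in the p30 UT list as well, by a bin 5 kb away from the start site.

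The rest of the upstream stretch was listed with the start site in p42 LPS alone. The contacts were 9 at 250 kb, 10 at 240 kb and 9 at 235 kb, with ratios of 7.10 (3.25 to 13.5), 7.33 (3.52 to 13.5) and 6.59 (3.01 to 12.5). The bound for each in p42 UT was 7 contacts and in both p30 lists 8. These counts exceed the bounds by 1 to 3 contacts, less than the counting error of either. In p42 UT the bin at 250 kb was listed instead with the bin 5 kb upstream of the start site, with 8 contacts, and the bins at 240 and 235 kb were listed with neither.

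With both of these promoter bins combined, the 9 bins from 260 to 220 kb upstream gave 2 loops with 20 contacts in p30 UT and 1 loop with 8 contacts after LPS. In p42 they gave 6 loops with 69 contacts in UT and 7 loops with 72 contacts after LPS. These sums hold listed pairs only. In p30 an unlisted pair of the start site with a partner in this stretch could have had up to 7 or 8 contacts, so the lower p30 sums do not show that contacts were fewer. The share that ended on the start-site bin itself was 8, 8, 32 and 55 contacts.

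Downstream, the pair at 80 kb (59600001 to 59605000) had 9 contacts in p42 UT and 10 after LPS, ratios of 4.66 (2.13 to 8.85) and 5.03 (2.41 to 9.26). The pair at 180 kb (59700001 to 59705000), the only partner that carried no H3K27ac peak, had 10 and 13 contacts, ratios of 6.08 (2.92 to 11.2) and 8.11 (4.32 to 13.9). Neither pair was listed in p30. The bound in p30 UT was 12 contacts at 80 kb, which allows as many as in p42, and 9 at 180 kb, and in p30 LPS it was 8 and 7.

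The remaining downstream pairs came from 1 list or from a p30 and a p42 list. At 70 and 90 kb there were 11 contacts each in p42 LPS, at 75 kb 10 contacts in p42 UT and at 160 kb 11 contacts in p42 UT. At 175 kb, where Gm63064 starts, there were 8 contacts in p30 LPS and 9 in p42 UT. These ratios ranged from 4.74 at 75 kb to 8.13 at 160 kb.

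For unlisted pairs the bound matters. In untreated cells, 6 of the 7 p42 pairs were missing from p30, and 3 of the 6 had more contacts than the p30 bound while 3 were within it. After LPS, 8 of 9 were missing from p30 and 7 of the 8 were above the bound, which ran from 7 to 12 contacts. A listed p42 count had itself passed a similar threshold, so it lies above such a bound almost by selection. The tally therefore does not show that p30 had fewer contacts. Where the coverage of the partner was not known in a list, the largest coverage bias of that list was used, which raises the bound.

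**Figure D2:**
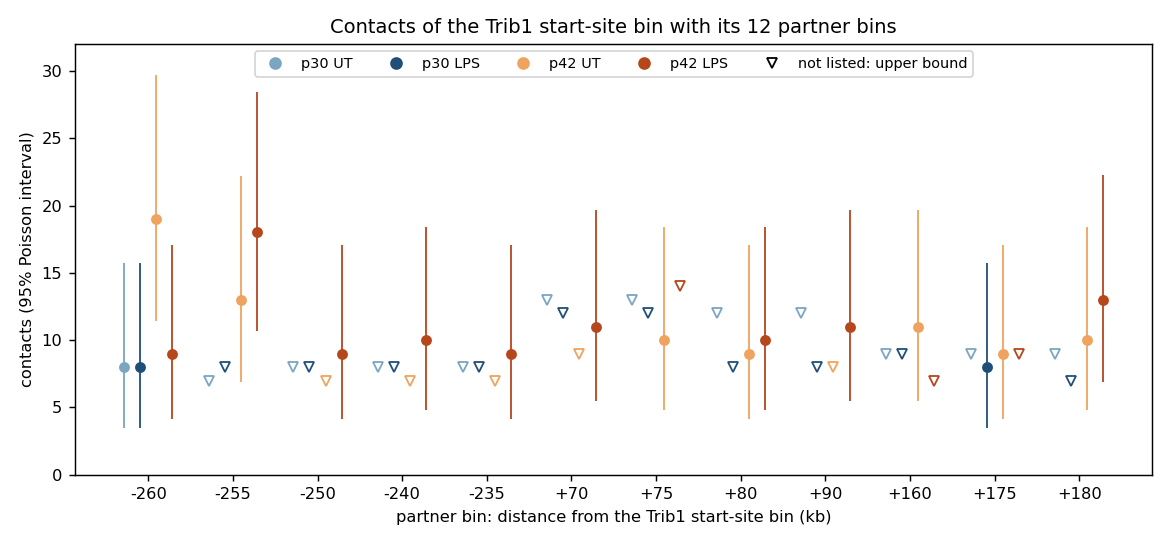
Contacts of the Trib1 start-site bin with each of its 12 partner bins, ordered by distance in kb, in the 4 lists. Filled points are listed contact counts with 95% Poisson intervals and open triangles the largest count that an unlisted pair could have had; the p42 points lie between 9 and 19, the p30 points at 8.

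Over all lists, most Trib1 loops had an ordinary ratio for their distance, while some in p42 were higher. Among all loops of 150 to 270 kb the median ratio was 6.85 (UT) and 6.79 (LPS) in p30 and 6.42 (UT) and 6.85 (LPS) in p42, and the upper quartile lay between 8.11 and 8.62. The pairs at 260 kb (p42 UT), at 255 kb (both p42 lists) and, by a small margin, at 160 kb downstream (p42 UT, 8.13 against 8.11) exceeded the quartile of their list, and the other Trib1 pairs at these distances did not. For 60 to 100 kb the medians lay between 5.25 and 5.59, and the Trib1 pairs at 70 to 90 kb between 4.66 and 5.90.

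Contacts were then compared between pairs of lists by a two-sided exact binomial test at each loop that both lists hold, with Benjamini-Hochberg adjustment over all shared loops. The test compares these libraries and not the conditions. At the Trib1 and Trib3 loci 0 of 20 such tests passed, and 0 had an unadjusted p below 0.05, also under the other null shares and for loops of all 4 lists. Over all shared loops, 1.34% passed for p42 against p30 in UT, 0.742% in LPS, 0.317% for LPS against UT in p30 and 0.296% in p42.

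For the Trib1 pair at 260 kb the p42 share of contacts was 70.4% in UT (19 of 27, 95% Wilson interval 51.5 to 84.2%) against 56.3% over all shared loops, with an adjusted p of 0.816 in the exact binomial test. After LPS it was 52.9% (31.0 to 73.8%) against 49.1%, with an exact adjusted p of 1. Between UT and LPS in p42, the LPS share was 32.1% at 260 kb (17.9 to 50.7%) and 58.1% at 255 kb (40.8 to 73.6%), against 41.9% over all shared loops. The adjacent bins thus lay on opposite sides of the null share, and neither passed the exact test (adjusted p of 1 and 0.905). Whether a difference of the observed size could be detected at these counts was not tested.

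The start-site bin of Trib1 was covered more deeply in p42. Bin coverage, the number of reads that the caller counted in the bin, was 1550 in p30 UT (95% Poisson interval 1474 to 1629) and 1625 after LPS (1547 to 1706). In p42 it was 3158 in UT (3049 to 3270) and 2621 after LPS (2522 to 2723). Divided by the mean coverage of peak bins in its list, this was 0.644 (UT) and 0.726 (LPS) in p30 and 1.08 and 1.35 in p42. Relative coverage was 1.68-fold higher in p42 than in p30 in UT and 1.86-fold higher after LPS.

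Few start sites differed as much. Relative coverage was higher in p42 in 58.5% of 6854 start-site bins in UT and in 32.5% of 6140 after LPS, and 1.46% and 0.472% of them exceeded Trib1. In p30 the Trib1 bin was deeper than 7.53% of the start-site bins of the list in UT and than 12.5% after LPS, and in p42 than 35.3% and 46.8%. Trib1 thus stood low among covered start sites in p30 and near the middle in p42 LPS.

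With LPS the relative coverage of the start-site bin was 1.13-fold higher in p30, where 57.2% of start-site bins were higher, and 1.25-fold higher in p42, where 25.0% were. The p42 difference depends on the scale, since coverage relative to the modelled contacts of each list had a ratio of 0.996 between LPS and UT.

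The bin 5 kb upstream, in the body of antisense Gm56697, did not follow. Its relative coverage was 0.802 (UT) and 0.854 (LPS) in p30 and 0.787 and 0.843 in p42. The 4 values overlap between p30 and p42, and the p42 to p30 ratios were 0.98 in UT and 0.99 after LPS. On this scale the higher coverage in p42 was therefore found in the bin with the first part of Trib1 and not in its upstream neighbour. Relative to modelled contacts the p42 to p30 ratios of that neighbour were 1.12 in UT and 0.783 after LPS. At the start site they were 1.93 and 1.48.

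**Figure D3:**
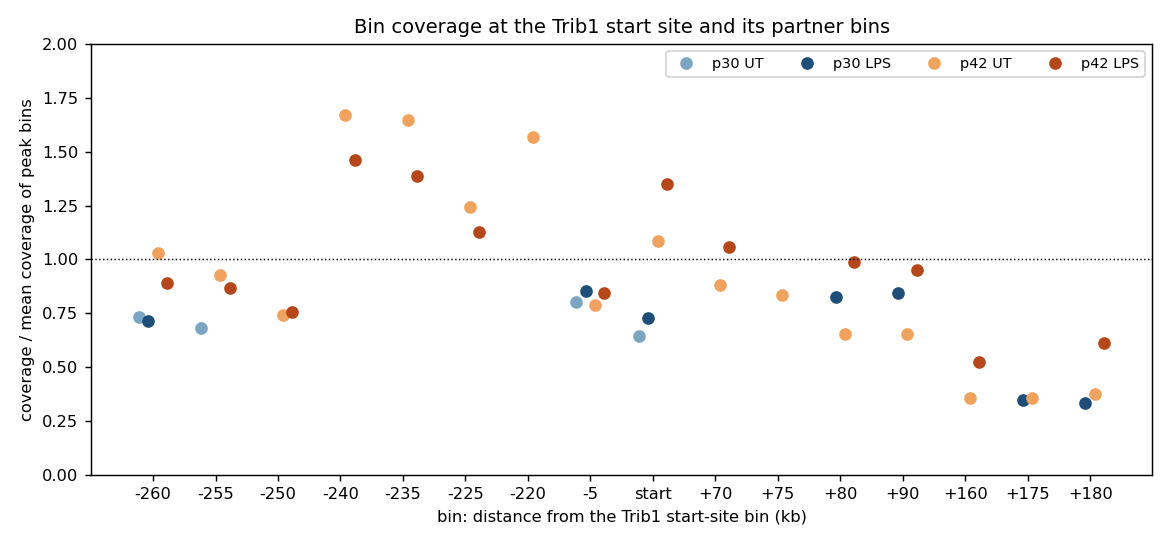
Coverage of the Trib1 start-site bin, its upstream neighbour and the partner stretches, divided by the mean coverage of peak bins of the same list (dotted line at 1), against the distance in kb. A bin without a point for a list takes part in no loop there; at the start site the p30 points are at 0.644 and 0.726 and the p42 points at 1.08 and 1.35.

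**Figure D4:**
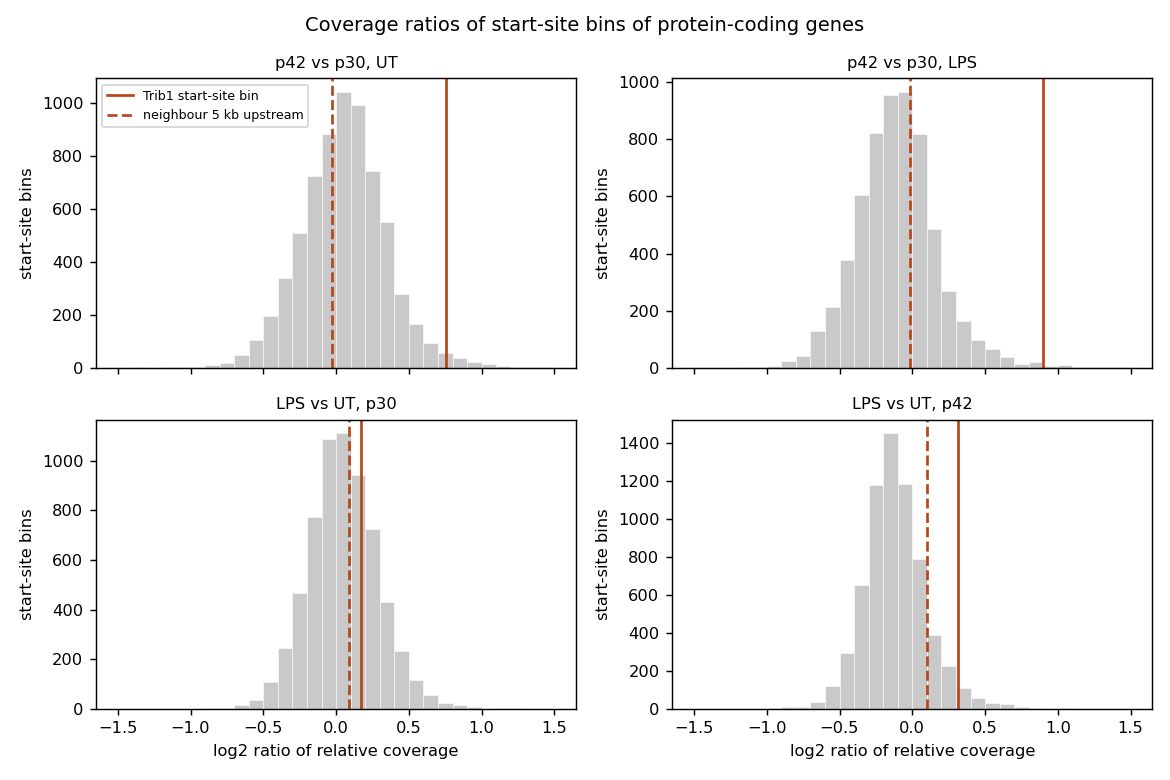
Distribution of log2 ratios of relative coverage over the start-site bins of protein-coding genes, for the 4 comparisons. The solid line marks the Trib1 start-site bin (log2 0.75 and 0.90 for p42 against p30 in UT and LPS) and the dashed line the bin 5 kb upstream (-0.03 and -0.02).

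Among the partners, coverage is known only where a bin takes part in a loop. At 260 kb upstream relative coverage was 0.732 (UT) and 0.713 (LPS) in p30 and 1.03 and 0.890 in p42, and thus higher in both p42 lists. Relative to modelled contacts the p42 to p30 ratio was 1.61 in UT and 0.99 after LPS, so that the difference after LPS was lost on that scale. For the bins at 240, 235 and 225 kb upstream coverage is known in the p42 lists alone, at 1.67 and 1.46, 1.65 and 1.39, and 1.24 and 1.13 in UT and LPS, and this also holds for the bin at 250 kb. Of the 9 bins of this stretch, 2 took part in any loop of p30 UT and 1 after LPS, against 7 and 6 in p42.

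The downstream partners at 80 and 180 kb had higher relative coverage after LPS than in UT in p42. At 80 kb relative coverage in p42 was 0.653 in UT and 0.987 after LPS, beside 0.824 in p30 LPS. At 180 kb it was 0.374 and 0.610 in p42, beside 0.335 in p30 LPS. The size of the p42 difference depends on the scale. For raw coverage the LPS to UT ratios were 1.007 at 80 kb and 1.087 at 180 kb, and relative to modelled contacts 1.209 and 1.305. In the upstream stretch the order of the p42 lists was the reverse, with lower relative coverage after LPS at 260, 255, 240 and 235 kb. The exception was 250 kb, with 0.742 in UT and 0.755 after LPS. Relative to modelled contacts that bin was also lower after LPS, with an LPS to UT ratio of 0.813.

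Loops near Trib1 that avoid the start site, with both bins within 200 kb, were few, with 5 (UT) and 2 (LPS) in p30 and 7 and 3 in p42. They were lower after LPS in both lines and slightly higher in p42 than in p30, but in lists of equal size p42 UT had 4 fewer than p30 UT and p42 LPS had 3 more than p42 UT. One of them joined the bins at 80 and 90 kb downstream, with 35 contacts in p30 LPS, beside 38 and 40 for UT and LPS of p42. Another joined the bins at 30 and 5 kb upstream, with 18 contacts in p30 UT and 17 in p42 UT. Beyond this window the p42 UT list linked the stretch at 260 kb upstream directly with the downstream stretches, past Trib1, with 10 contacts to 70 kb downstream, 8 to 75 kb and 7 to 175 kb, and the bin at 255 kb upstream with that at 180 kb downstream, with 8 contacts. The p30 LPS list held a pair of this kind from 260 kb upstream to 180 kb downstream, with 10 contacts.

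The genes named here were most like Trib1 in the pattern of relative start-site coverage over the 4 lists, by the summed squared difference of centred log2 values among 6333 genes covered in all of them. They were Fcgr2b, an inhibitory Fc receptor, at 0.015, Fyb1, an adaptor of T cell and myeloid signalling, at 0.027, and Ugt1a6a, a glucuronosyltransferase, at 0.0302. Fcgr2b had 12, 16, 19 and 18 promoter loops, Fyb1 2, 2, 8 and 4, and Ugt1a6a 1 in each list, with p30 (UT, then LPS) before p42 (UT, then LPS). Similarity over 4 values is a description.

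Trib3 had 1 promoter loop in p30 UT and 1 in p42 LPS, and 0 in the other lists. Both were the same pair, which joined its start site with a bin 120 kb downstream (chromosome 2, 152065001 to 152070000). That bin holds the start sites of Csnk2a1, the catalytic α subunit of casein kinase 2, and of the non-coding Gm57421. The pair had 9 contacts in each of these lists, against 1.65 and 1.56 expected, ratios of 5.45 (2.49 to 10.3) and 5.79 (2.65 to 10.99). The bound in the lists that lack it was 13 contacts in p30 LPS and 11 in p42 UT, so that 9 contacts could also have been present there.

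The Trib3 start-site bin had a coverage of 1439 in p30 UT and 1099 in p42 LPS, or 0.598 and 0.567 of the mean of peak bins. It was deeper than 5.67% and 4.38% of the start-site bins of these lists. Trib3 was thus among the least covered start sites that took part in a loop, while its partner at Csnk2a1 reached 1.74 times the mean in p30 UT and 1.68 (UT) and 1.60 (LPS) times in p42.

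The other loops within 200 kb of Trib3 numbered 9 (UT) and 11 (LPS) in p30 and 12 and 3 in p42. One was listed in all 4, between the start sites of Rbck1, a subunit of the linear ubiquitin ligase complex, and Tbc1d20, a Rab GTPase-activating protein, 15 and 50 kb downstream of Trib3. It had 25 contacts in p30 UT and 21 after LPS, beside 26 and 18 in p42. In p42 UT the bin of Rbck1 was also listed with that of Csnk2a1, with 12 contacts. The loops of this region thus linked its neighbours with each other more than with Trib3.

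**Figure D5:**
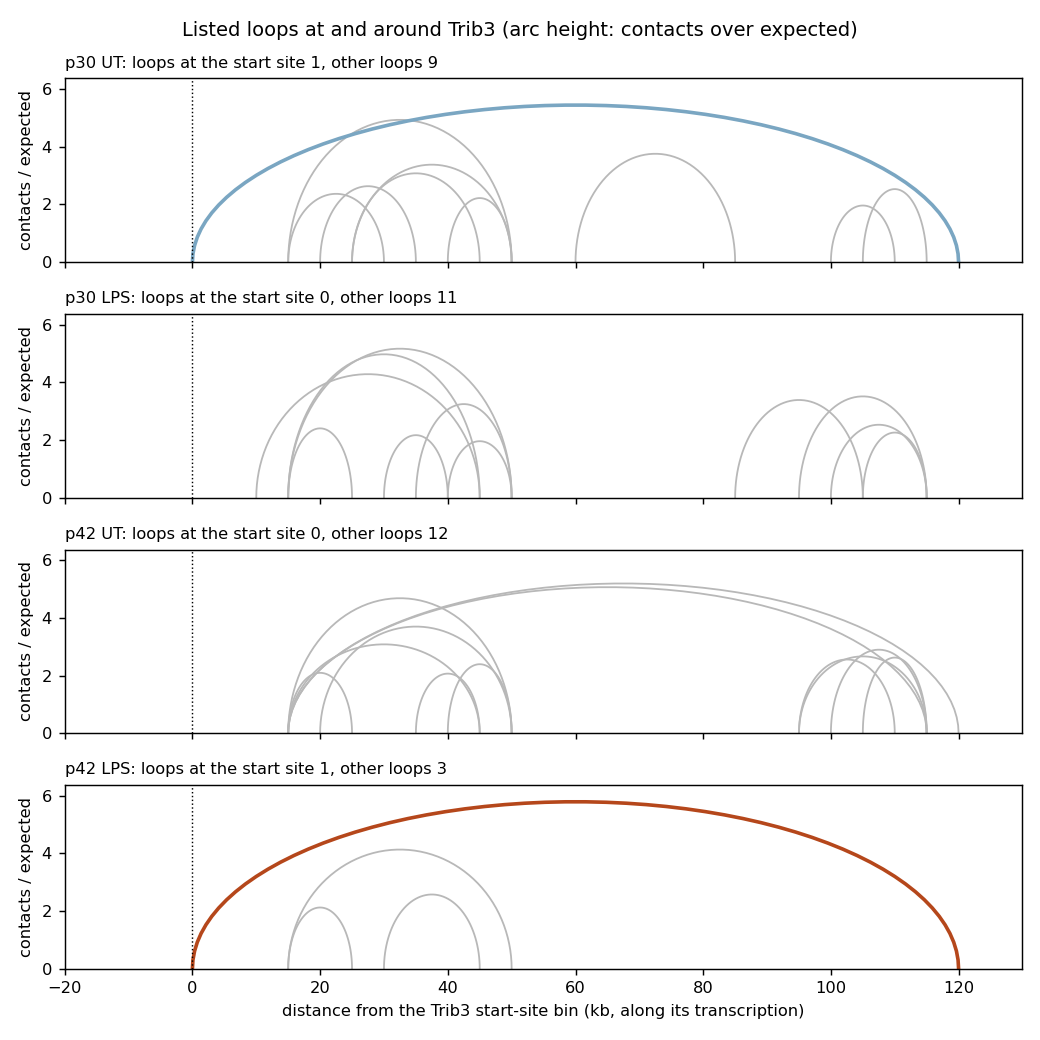
Loops listed around Trib3 in the 4 lists, drawn against the distance in kb along its transcription, with arc height as contacts over expected. Coloured arcs end on the Trib3 start site, 1 in p30 UT and 1 in p42 LPS; the grey arcs, 9, 11, 12 and 3 per list, join bins 10 kb or more downstream.

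The RefSeq promoter window of Trib3 (GRCm38.p6, 250 bases before to 50 after the start) is shown for its match to the composite C/EBP-ATF element, since Trib3 is a known ATF4 and CHOP target. The match begins 14 bases after the start in that table, at chr2:152344029-152344056 on the minus strand.
Trib3 start: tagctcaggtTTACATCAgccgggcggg
Letters of this search are present in 3.97% of the 32851 promoter windows of the table. The Trib3 window held 0 matches to AP-1, C/EBP and NF-kB, which were found in 7.81%, 10.8% and 4.79% of windows. The window of Trib2 held 0 matches to any of the 4.

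Trib2 had 0 promoter loops in each list and 0 other loops within 200 kb. The nearest bin that took part in any loop lay 755 kb away in p42 LPS and 750 kb away in the other lists, and in the other direction 2550 to 3500 kb away. A start site without a loop was common, since 37.2% (UT) and 38.8% (LPS) of protein-coding genes had a promoter loop in p30 and 44.8% and 35.1% in p42. The lists give no coverage for bins outside loops, so whether the Trib2 start site carried H3K27ac could not be read from them.

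The proteins that work with Tribbles were followed as 20 genes from a list made for this purpose. In UT, 18 of the 20 had more promoter loops in p42 than in p30 and 0 had fewer, with a median difference of 3.5. After LPS, 3 had more in p42 (Cul4a, Map2k1 and Map2k4) and 12 had fewer, with a median of -1.5. With LPS, 12 had more and 2 fewer in p30, and 0 had more and 18 fewer in p42. In lists of equal size these counts were different, with 11 that had more and 3 fewer in p42 than in p30 in UT. With LPS, 5 had more and 10 fewer in p42. Of all genes in such lists, 41.7% and 31.8% had more in these comparisons. The directions in the full lists are those of the lists as a whole (81.9%, 23.6%, 53.1% and 4.51% of genes).

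Of the subunits of the COP1 ligase, Cop1 itself had 1 loop, in p42 UT. Det1, the adaptor that places COP1 on the CUL4 ligase, had 2 (UT) and 6 (LPS) loops in p30 and 9 and 2 in p42. Cul4a, its scaffold, had 4, 4, 15 and 10 in the same order, and Ddb1, the linker, 12, 14, 22 and 13. Dda1 had 2 loops, in p30 LPS, Cul4b 1, in p42 UT, and the RING subunit Rbx1 had 11, 13, 16 and 5.

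Among the substrates, Cebpa had 10, 5, 11 and 5 loops, and Cebpb, the inflammatory C/EBP paralogue, 13, 21, 33 and 21. Acaca, the acetyl-CoA carboxylase that Trib3 directs to COP1, had 0 in each list.

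Among the kinases bound by Tribbles, Map2k1, which encodes MEK1, had 6, 8, 15 and 11 loops and Map2k4 2, 2, 6 and 4. Map2k7 had 3, 4, 6 and 0, Akt1 10, 11, 15 and 9, and Akt2 5, 14, 14 and 4. Of the transcription factors that regulate Tribbles genes, Atf4 had 3, 8, 5 and 4 loops, Ddit3, which encodes CHOP, 13, 12, 16 and 6, E2f1 2, 2, 3 and 1, and Meis1 5, 7, 16 and 5. The related pseudokinase gene Stk40 had 3, 7, 4 and 1.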

How the data were processed

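HiChIP libraries were made with an MNase kit and an H3K27ac antibody. Per the study's methods and the submitters' processing notes, the authors mapped reads to mm39 with BWA 0.7.17, kept ligation events and removed duplicates with pairtools, and called loops with FitHiChIP in bins of 5 kb at a q-value under 0.01. How replicates were pooled is not given in the sources used here. The deposited contact count is a whole number of ligation products, and the deposited coverage is the signal per bin. The authors' caller gave the expected count, the probability (a fraction), the bias (a ratio to the mean coverage of its class of bin) and the q-value; it lists significant pairs only, and since it corrects for coverage it can remove part of a difference in H3K27ac.

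From expected count and probability, the modelled contacts were 17976716 (UT) and 14503330 (LPS) in p30 and 18999991 (UT) and 15831583 (LPS) in p42, the depth of each list. Start sites were those of GENCODE M39. Shared loops have identical bins, and their contacts were tested with an exact binomial test, checked first on simulated data. Members and lists were chosen with earlier results of these data known. Named genes were the members, the 20 pathway genes, genes in partner bins, and per member the 3 genes of most similar coverage. The list of markers of other cell types is not reported here. Python 3.11.15 with scipy 1.17.1 and pandas 2.3.3 was used.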

Additional observations from a re-analysis of the deposited data

Results flagged for a closer look

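The Trib3 promoter loops moved in opposite directions with LPS, by -1 in p30 and by 1 in p42, a difference of 2. Both values were 0 at a q-value of at most 0.001 and at 10 or more contacts, and the bounds of 13 and 11 contacts allow the pair of 9 contacts in the lists that lack it. The other loops within 200 kb of Trib3 also did, by 2 in p30 and by -9 in p42, a difference of -11. With equally long lists these values were 0 and -2, and in a window of 100 kb 0 and -3, so that the opposite directions were lost. Neither difference was tested, since each group has 1 pooled list.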

How the results depend on the processing

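No paired analysis was possible because each list pools both replicates of its group; for the same reason no replicate could be left out. The excess of Trib1 promoter loops in p42 over p30 (6 in UT, 7 after LPS) kept its sign in all 7 alternatives. In UT it was 2 in lists of equal size, 3 with adjacent pairs merged and 10 with 1 bin added on each side; after LPS it was 4 at a q-value of at most 0.001 and 4 with adjacent pairs merged. The LPS difference in p30 (1) was 0 at that q-value, at 10 or more contacts and with 1 bin added. In p42 (2) it was -1 at that q-value, -2 with 1 bin added, 6 in equal lists and 1 at 10 or more contacts. The log2 ratio of Trib1 start-site coverage, p42 to p30, was 0.75 in UT and 0.90 after LPS; with neighbouring bins it was 0.37 and 0.47, and relative to modelled contacts 0.56 after LPS. For LPS against UT on that scale it was 0.38 in p30 (0.17 before) and -0.0052 in p42 (0.32 before). For the other loops within 200 kb, equal lists turned Trib1 (p42 minus p30, UT) to -4 and (LPS minus UT, p42) to 3, and Trib3 (p42 minus p30, UT) to -4, which a window of 100 kb turned to -1. Shared loops called numbered 793, 342, 149 and 177 (p42 against p30 in UT and LPS, LPS against UT in p30 and p42); they were 240, 19, 25 and 39 with the null share from expected counts and 3007, 731, 1033 and 880 from modelled contacts. The causes were not tested. A count of any annotated start site, chosen after seeing the data, changed no count. Contacts of 8 to 19 per loop limit every comparison of Trib1 promoter loops.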
